A study of Homo sapiens with 24 samples.

Results

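The 10 genes described here encode the network of proteins built around MAX and MLX: MYC and MAX, the MAX partners MXD1, MXD3, MXD4, MXI1, MNT and MGA, and MLX with its partner MLXIP. They were taken by symbol from the hg38 RefSeq annotation, where all 10 were found among 20033 protein-coding genes. A gene counted as carrying a Myc peak when a peak reached within 1 kb of either end of its span, and all peaks within 100 kb on either side were listed as well. Binding was measured by CUT&Tag, in which an antibody guides a transposase that cuts and tags nearby DNA, and sites with many sequenced fragments are called as peaks. Both libraries used a Myc antibody on lightly fixed MIA PaCa-2 cells, a long-established line from a human pancreatic carcinoma, here with a tet-inducible MED30, a subunit of the Mediator complex. One library came from cells given doxycycline, titled as day 5, and the other from the same line without doxycycline, while the protocol in the labels gives 2 days of treatment. Whether the line is a single clone, how strongly MED30 was induced and how many cells were used is not stated in the labels. The question behind the pair was how extra MED30 influences Myc binding.

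Proteins of the MYC, MAX and MLX families share a helix-loop-helix and leucine zipper through which they form pairs, each with certain partners only. The pairs contact short E-box sequences such as CACGTG. MYC paired with MAX activates genes of growth, whereas the MXD proteins, MXI1 and MNT pair with MAX on the same sequences and recruit Sin3 and histone deacetylases, which repress. MGA, the largest MAX partner, works with a Polycomb complex, and MLX with MLXIP forms an arm of the network that answers to glucose. In many cell types MYC is known to act on its own gene and on those of its partners.

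With 1 library per condition there was no replicate check, and every difference below compares these libraries only, with no test. On chromosomes 1 to 22, X and Y the authors' lists held 6727 peaks at day 5 and 3472 without doxycycline. At the median peak 12 fragments covered the summit at day 5 and 11 without doxycycline. The fragment numbers were recovered from the deposited fold and −log10 p-value, and the total reads of each library are not known here. Intervals are exact 95% Poisson or Clopper-Pearson intervals that cover counting error only, and those of shares treat genes as independent draws. No IgG list was used here, so some peaks can be background. Peaks do not measure expression, so the cell type could not be checked from them. Of 4 mesenchymal markers, VIM had a gene-end peak in both libraries, ZEB1 had one at day 5 only, and FN1 and CDH2 had none. None of the 7 duct epithelium, 5 acinar or endocrine and 4 leukocyte markers had one in either library. Over all protein-coding genes 27.4% had one at day 5, 14.4% without doxycycline, and 71.1% in neither library. The interval of each marker list included the 27.4% at day 5 and the 14.4% without doxycycline, so no cell type is read from these counts.

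Myc peaks lay at most of these genes in both libraries. At day 5, 8 of the 10 carried one (80%, interval 44.4 to 97.5), where 27.4% of all protein-coding genes did. Without doxycycline 6 of 10 carried one (60%, 26.2 to 87.8), against 14.4% of all genes. MYC, MAX, MXD1, MXD3, MNT and MGA were in both lists, as were 12.9% of all genes. MLX and MLXIP were listed at day 5 only, as were 14.5% of all genes, and no member was listed without doxycycline only, against 1.57% of all. MXD4 and MXI1 had no peak at either end in either library, like 71.1% of all genes. The all-gene shares count genes of every activity and promoter type, so a share above them is not shown to be particular to this family.

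**Figure D1:**
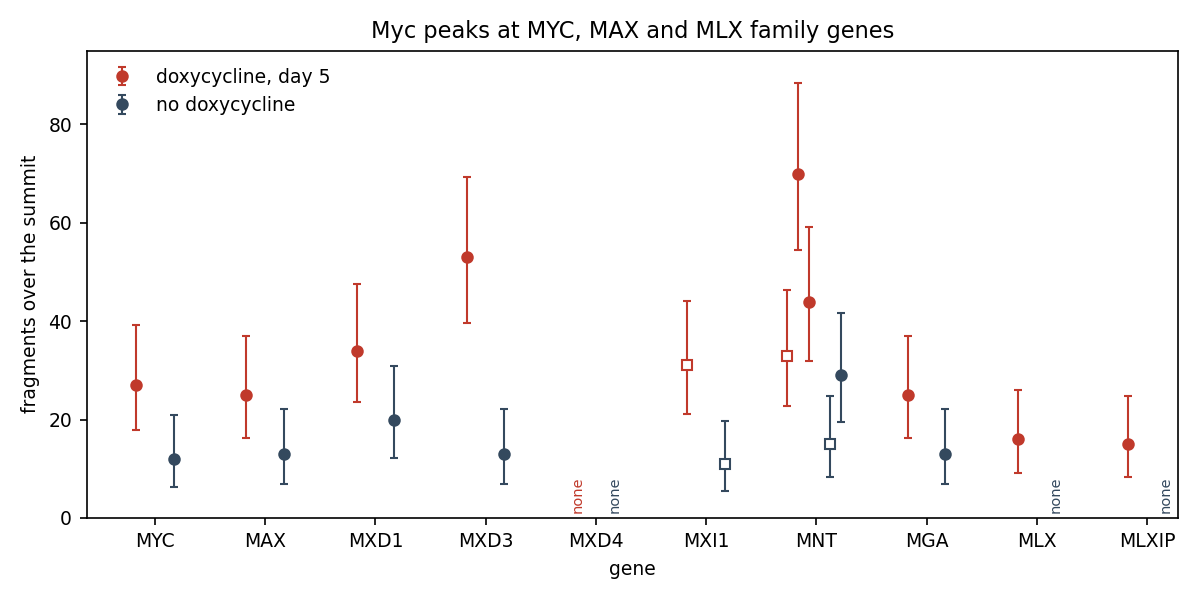
Fragments over the summit of each Myc peak at or inside the 10 genes, with exact 95% Poisson intervals, day 5 of doxycycline left of no doxycycline. Filled circles are peaks within 1 kb of a gene end, open squares are peaks further inside the gene, and "none" marks a gene with neither. The day 5 values run from 15 at MLXIP to 70 at MNT, and those without doxycycline from 11 at MXI1 to 29 at MNT.

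Where the strand is known, the peaks sat at the start of the gene. Of the 9 members with a listed strand, 7 at day 5 and 5 without doxycycline carried a peak, in each case at the 5′ end and in none at the 3′ end. The same end held the peak of 96.4% of all marked genes with a listed strand at day 5 and of 95.9% without doxycycline. Around the start the summits fell on either side: upstream at MAX, MXD1, MLXIP and 1 of the MNT peaks, and inside the gene at MXD3, MGA, MLX and the other MNT peak. The rule on distance cut between MNT and MXI1. The MNT peak furthest from its gene end among those counted lay 850 bp from it, and the MXI1 peak nearest an end among those not counted lay 1830 bp away.

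MYC is the activating member whose protein the antibody recognised. Its gene lies on chromosome 8 at 127735434 to 127742951. The peak over the lower-coordinate end of the gene spanned 127735178 to 127736089 at day 5 with 27 fragments (interval 17.8 to 39.3) and 127735192 to 127735874 without doxycycline with 12 (6.20 to 21.0). The summit lay 87 bp inside that end at day 5 and 8 bp without doxycycline. The peak ranked 1064 of 6727 at day 5 and 2055 of 3472 without doxycycline, where ranks follow the authors' −log10 q-value within each list. The ratio of fragments at day 5 over no doxycycline was 2.25 (1.10 to 4.88), where the median over all shared gene-end peaks was 1.44. Divided by that median it was 1.56 (0.763 to 3.38), an interval that includes 1.

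A further Myc peak near MYC lay at the end of PVT1 that faces it, a long non-coding RNA gene. Its summit was 59.6 kb from the lower-coordinate end of MYC in both libraries. It lay 558 bp from that end of PVT1 at day 5 and 485 bp without doxycycline, with 22 fragments at day 5 (13.8 to 33.3) and 14 without doxycycline (7.65 to 23.5). A weaker peak inside PVT1, 74.5 kb from the same end of MYC, had 12 fragments and was listed at day 5 only. No other peak was listed within 100 kb of MYC in either library.

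MAX, the partner that MYC needs to contact DNA, carried a peak over the outer end of its span (chromosome 14, 65006101 to 65102695, minus strand). It had 25 fragments at day 5 (16.2 to 36.9) and 13 without doxycycline (6.92 to 22.2), a ratio of 1.92 (0.947 to 4.09). The summit lay 198 bp upstream of the outer end at day 5 and 151 bp without doxycycline. The peak stopped 298 bp short of the nearest start in the promoter table at day 5 and 332 bp without doxycycline. The peak was thus at the outermost end of the gene rather than over either listed start.

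Among the MXD repressors the genes differed. MXD3 (chromosome 5, 177305499 to 177312752, minus strand) had 53 fragments at day 5 (39.7 to 69.3) and 13 without doxycycline (6.92 to 22.2). Its rank was 64 of 6727 at day 5, within the first 0.951% of the list, and 1712 of 3472 without doxycycline, at 49.3%. Only 79 peaks of the day 5 list had as many fragments as MXD3 or more. The ratio at MXD3 was 4.08 (2.19 to 8.15), and the summit lay 535 bp inside the gene at day 5 and 278 bp without doxycycline.

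MXD1 (chromosome 2, 69915109 to 69942945, plus strand) had 34 fragments at day 5 (23.5 to 47.5) and 20 without doxycycline (12.2 to 30.9). Its summit was 542 bp upstream of the start at day 5 and 352 bp without doxycycline. It ranked 287 of 6727 at day 5 and 582 of 3472 without doxycycline. The ratio of 1.70 (0.951 to 3.12) was the second lowest of the 6 genes listed in both libraries. Without doxycycline MXD1 had the highest rank of the family, and at day 5 it stood behind MXD3 and MNT.

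MXD4 (chromosome 4, 2247432 to 2262109, minus strand), another MAX partner that represses, had no peak at or inside the gene in either library. Within 100 kb a single peak was listed, at day 5 only, with 11 fragments. It lay 4839 bp beyond the 3′ end of MXD4, where POLN, a DNA polymerase gene, and HAUS3 are annotated.

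MXI1, the fourth repressor of this type (chromosome 10, 110207605 to 110287365, plus strand), had a peak in each library, inside the gene and at different places. The promoter table lists 3 starts for it, at 110207605, 110210231 and 110225996. At day 5 the peak lay at 110226178 to 110227426, 182 bp past the third start, with 31 fragments (21.1 to 44.0) and rank 663. Without doxycycline the peak lay at 110209435 to 110209939, 292 bp before the second start, with 11 fragments (5.49 to 19.7) and rank 2340. Neither overlapped a peak of the other library. Of all day 5 peaks with at least 30 fragments, 27 of 487 (5.54%) had no counterpart without doxycycline, the one in MXI1 among them. The limit of 30 lies just below the 31 fragments of that peak, so the share does not show it to be unusual. When any peak inside the span was counted too, 9 members at day 5 and 7 without doxycycline carried one, against 31.6% of all genes at day 5 and 17.0% without doxycycline. Within 1 kb of a listed start, MXI1 included and MYC left out, 8 of 9 members had a peak at day 5 and 6 of 9 without doxycycline, against 30.1% at day 5 and 16.0% without doxycycline of the 15842 genes with a listed start.

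MNT, a MAX and MLX partner that represses and often opposes MYC, had the most Myc peaks of its own. In its gene or within 1 kb of it (chromosome 17, 2384073 to 2401060, minus strand) there were 3 peaks at day 5 and 2 without doxycycline. The peak upstream of the start was shared, with 44 fragments at day 5 (32.0 to 59.1) and 29 without doxycycline (19.4 to 41.6), a ratio of 1.52 (0.928 to 2.51). A second peak, shared by an overlap of 307 bp, lay about 8 kb inside the gene. Its summit was 8.09 kb from the start at day 5 and 7.62 kb without doxycycline, 470 bp apart. It had 33 fragments at day 5 (22.7 to 46.3) and 15 without doxycycline (8.40 to 24.7). The third, at 2399638 to 2400210 with its summit 1238 bp inside the gene, was listed at day 5 only, with 70 fragments (54.6 to 88.4) and rank 131.

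The day 5 peak of MNT with 70 fragments was the only 1 of the 16 gene-end peaks with at least 70 fragments that had no counterpart without doxycycline, a limit set by its own value. It stood on a high local background, the number of fragments that the peak caller expected at the summit from its surroundings. That background was 10.2 fragments at this peak and 9.28 at the upstream peak, the highest pair of all 4474 gene-end peaks at day 5, whose median was 1.06. Without doxycycline the upstream peak had a background of 5.23, reached by 3 of 2297 gene-end peaks, itself included, where the median was 0.829. The part of this background in the listing of the 70-fragment peak was not tested. The other MNT peaks lie close by, and what they add to this background was not tested either.

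**Figure D2:**
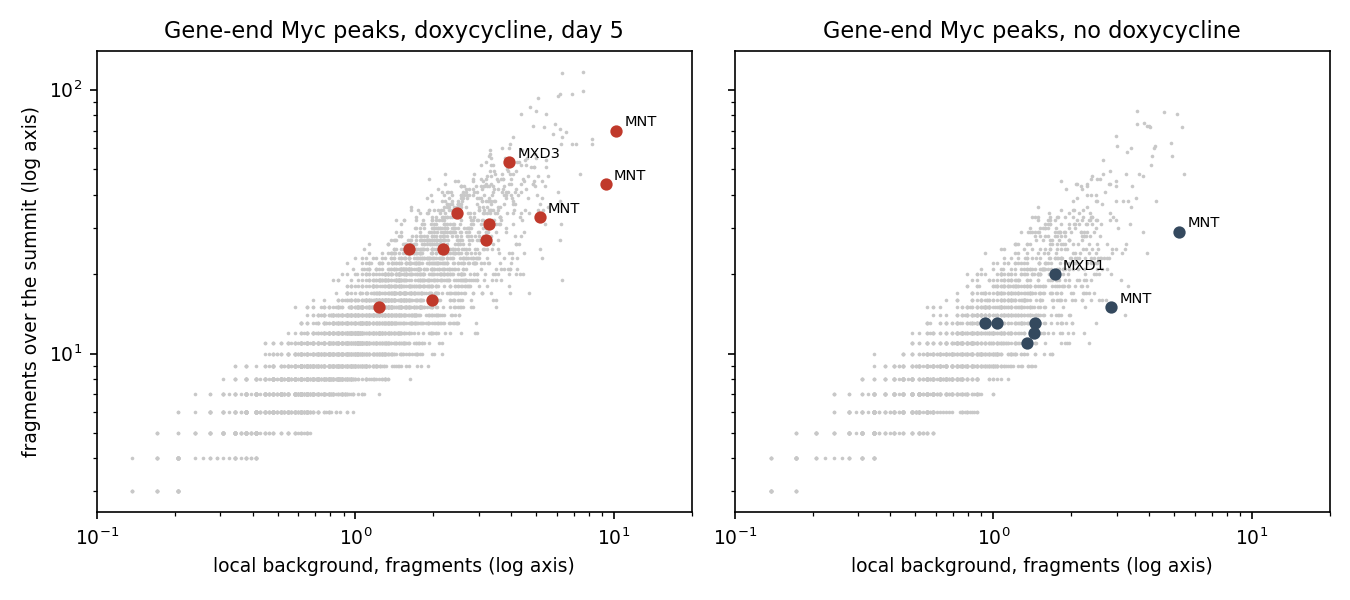
Fragments over the summit against local background for every gene-end peak (grey), with peaks at or inside the 10 genes in colour, day 5 of doxycycline left and no doxycycline right, both axes logarithmic. The MNT gene-end peaks are among those with the highest background in both panels, with 10.2 and 9.28 fragments at day 5 and 5.23 without doxycycline. The MNT peak further inside the gene has a lower background, 5.15 at day 5 and 2.85 without doxycycline.

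MGA (chromosome 15, 41621224 to 41769940, plus strand) carried a peak at the first of its 3 listed starts. It had 25 fragments at day 5 (16.2 to 36.9) and 13 without doxycycline (6.92 to 22.2), the same numbers as MAX. It ranked 529 of 6727 at day 5 and 1208 of 3472 without doxycycline. The summit lay 396 bp inside the gene at day 5 and 282 bp without doxycycline. A long non-coding RNA gene, LOC105370791, is annotated under the same peak. Its nearest end was closer to the summit, at 165 bp at day 5 and 51 bp without doxycycline. No peak was listed at the starts at 41660405 and 41660747 in either library.

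The MLX arm was listed at its gene ends at day 5 only. MLX (chromosome 17, 42567100 to 42573203, plus strand), the MAX-like partner, had 16 fragments at day 5 (9.15 to 26.0) and no listed peak at or inside the gene without doxycycline. MLXIP (chromosome 12, 122078756 to 122147344, plus strand), the glucose-responsive partner also called MondoA, had 15 (8.40 to 24.7) at day 5 and none without doxycycline. They were the lowest fragment numbers of the family at day 5, with ranks 2901 and 2023. Among day 5 gene-end peaks with 15 or 16 fragments, 171 of 370 (46.2%, interval 41.0 to 51.4) had no counterpart without doxycycline. A gene without a listed peak may still be bound below the threshold of the authors' lists.

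The sequences before the starts show where the CACGTG E-box stands relative to the peaks. Shown are the 250 bases upstream of the listed start of the 3 members whose promoter window holds it, from RefSeq (GRCh38.p14), 5′ to 3′ on the gene's strand, with the E-box in capitals. The MNT stretch lay partly under a peak in both libraries and the MLX stretch at day 5 only, and the MXD4 stretch under none.
MNT, chr17:2401061-2401310, minus strand: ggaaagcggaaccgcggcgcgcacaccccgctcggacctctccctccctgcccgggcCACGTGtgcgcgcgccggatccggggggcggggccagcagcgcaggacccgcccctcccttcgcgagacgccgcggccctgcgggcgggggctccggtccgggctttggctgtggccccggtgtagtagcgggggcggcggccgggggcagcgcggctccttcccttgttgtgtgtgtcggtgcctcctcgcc
MLX, chr17:42566850-42567099, plus strand: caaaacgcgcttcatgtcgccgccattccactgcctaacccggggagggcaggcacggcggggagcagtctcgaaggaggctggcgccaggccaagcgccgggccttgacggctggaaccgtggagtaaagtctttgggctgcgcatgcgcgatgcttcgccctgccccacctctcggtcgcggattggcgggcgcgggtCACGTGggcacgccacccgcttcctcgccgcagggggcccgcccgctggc
MXD4, chr4:2262110-2262359, minus strand: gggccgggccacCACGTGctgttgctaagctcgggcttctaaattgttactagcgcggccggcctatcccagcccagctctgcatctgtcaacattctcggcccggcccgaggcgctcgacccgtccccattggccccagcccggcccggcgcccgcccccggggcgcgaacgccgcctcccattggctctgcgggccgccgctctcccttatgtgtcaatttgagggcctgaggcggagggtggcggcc

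At MNT the E-box began 193 bases before the start and lay under the peak in both libraries, 583 bp from the summit at day 5 and 601 bp without doxycycline, near the peak's inner edge. At MLX the E-box began 50 bases before the start and lay under the day 5 peak, whose summit was 687 bp away. At MXD4 it began 238 bases before the start, with no peak over it in either library. Both strands of the full window of 300 bases were searched, 250 before and 50 after each start, and the motif reads the same on both strands. It was found in 3 of the 9 members with a listed window, against 10.9% of 15842 genes with one. The related CACGCG was found in 3 other members, MXD3, MXI1 and MGA, against 18.1% of genes, and CATGTG in none, against 11.5%. The CACGCG of MXD3 lay under the peak without doxycycline but not under that of day 5. Those of MXI1 and MGA lay under no peak in either library. A match is a description of the letters and not a binding site.

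MLXIP and MXD1 hold none of these motifs in their windows and are shown because their day 5 peaks reach over the bases before the start. Capitals mark the bases under the day 5 peak.
MLXIP, chr12:122078506-122078755, plus strand: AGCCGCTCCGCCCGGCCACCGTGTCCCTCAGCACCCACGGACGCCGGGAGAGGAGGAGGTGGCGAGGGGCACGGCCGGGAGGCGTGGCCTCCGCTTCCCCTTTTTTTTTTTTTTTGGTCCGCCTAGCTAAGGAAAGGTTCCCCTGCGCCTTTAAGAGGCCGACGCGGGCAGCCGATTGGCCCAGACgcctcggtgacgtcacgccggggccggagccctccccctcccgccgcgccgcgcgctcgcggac
MXD1, chr2:69914859-69915108, plus strand: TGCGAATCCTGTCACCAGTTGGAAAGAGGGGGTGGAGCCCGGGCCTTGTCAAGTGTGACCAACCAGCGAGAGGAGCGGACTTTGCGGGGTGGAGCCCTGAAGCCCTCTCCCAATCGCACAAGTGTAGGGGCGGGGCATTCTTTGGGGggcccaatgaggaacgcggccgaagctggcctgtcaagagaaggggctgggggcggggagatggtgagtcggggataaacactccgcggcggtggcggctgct

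The MLXIP peak covered 186 of its 250 bases and had its summit within them, 221 bp before the start. The MXD1 peak covered 147 bases, and its summit lay outside the stretch.

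For the 6 genes listed in both libraries, the fragments at day 5 exceeded those without doxycycline each time. The ratio ran from 1.52 at MNT to 4.08 at MXD3, with a median of 1.92. Most shared peaks went the same way: over 2006 shared gene-end peaks the median ratio was 1.44 (quartiles 1.14 and 1.83). All 6 members were above that median, and 2 of 6, MYC and MXD3, reached 2-fold, against 19.9% of all pairs. Divided by the median of all pairs, the ratio was 2.82 at MXD3 (1.52 to 5.64) and 1.56 at MYC (0.763 to 3.38). It was 1.33 at both MAX and MGA, 1.18 at MXD1 and 1.05 at MNT (0.643 to 1.74), and the interval of MXD3 was the only 1 of the 6 above 1. MXD3 was singled out after its value was seen, and 6 of the 2006 pairs, itself included, had a ratio as high.

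**Figure D3:**
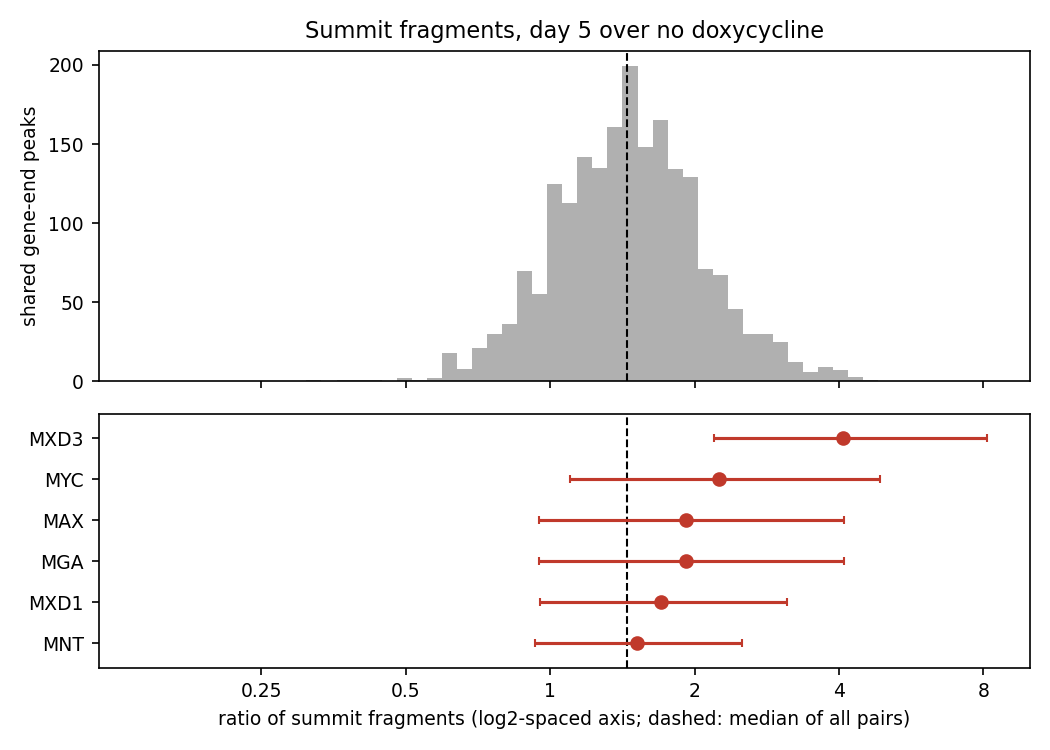
Upper panel, number of shared gene-end peaks by the ratio of summit fragments, day 5 over no doxycycline, on a log2-spaced axis. Lower panel, the same ratio at the 6 genes listed in both libraries with exact 95% intervals, the dashed line marking the median of all 2006 pairs at 1.44. MXD3 at 4.08 stands to the right of the other 5 genes, which lie between 1.52 and 2.25.

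The local background also differed between the libraries at these peaks. At the 6 shared gene-end peaks it was between 1.43 and 2.70 times as high at day 5, with a median of 2.00, against a median of 1.63 over all shared gene-end pairs. At MXD3 it was 3.92 fragments at day 5 and 1.45 without doxycycline, and at MYC 3.20 at day 5 and 1.43 without doxycycline. Whether the authors called peaks against an IgG library is not known here. Without one, the background takes in fragments of the peak itself and of its neighbours. The part of the background in the ratios was not tested.

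The neighbourhoods of these genes held 27 peaks at day 5 and 14 without doxycycline, counted once each within 100 kb of a gene, members' own peaks included. Per gene the median was 2 at day 5 and 1.5 without doxycycline, against 1 and 0 for all protein-coding genes. Longer genes have longer windows, and the count was not adjusted for that. Of the 27 day 5 peaks, 11 overlapped a peak without doxycycline by at least 1 bp and 16 did not, where 57.6% of all day 5 peaks had no counterpart. Of the 14 peaks without doxycycline, 3 had none at day 5, where 17.8% of all such peaks had none. Those 3 were the MXI1 peak, a peak of 6 fragments with its summit 16942 bp upstream of MGA, and the peak at NAGLU near MLX.

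Many of the neighbouring peaks lay near other genes, as did most Myc peaks of both lists. Of the 16 neighbourhood peaks at day 5, 10 had their summit within 1 kb of the end of another coding gene. Of the 6 without doxycycline, 3 did. Over all peaks, 4474 of 6727 at day 5 and 2297 of 3472 without doxycycline reached within 1 kb of a coding gene end. That count goes by the reach of the peak and not by its summit, and no difference from it is shown here. Next to MAX an end of FNTB, a farnesyltransferase subunit, had 15 fragments at day 5 and 17 without doxycycline, the only shared peak of these neighbourhoods that was lower at day 5 (ratio 0.882, 0.410 to 1.88). Around MLX, in a gene-dense stretch, 5 neighbouring peaks were listed at day 5, by ATP6V0A1 (2 peaks), HSD17B1, PSMC3IP and TUBG2, with 6 to 16 fragments. Without doxycycline only NAGLU, a lysosomal enzyme gene, had a peak near MLX, with 15 fragments.

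Beside MNT the ribosome maturation gene TSR1 had 16 fragments and SMG6, of nonsense-mediated decay, had 10, both at day 5 only. Near MXD3 a peak inside F12, the coagulation factor XII gene, had 12 fragments at day 5 and 11 without doxycycline. Near MLXIP a peak over DIABLO, an apoptosis gene, had 14 fragments at day 5 and 7 without doxycycline, and the coding gene end nearest to it was that of LOC128125816. The remaining neighbours, all at day 5 only, were GMCL1 near MXD1 with 15 fragments, CHURC1 near MAX with 7 and MAPKBP1 near MGA with 8.

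**Figure D4:**
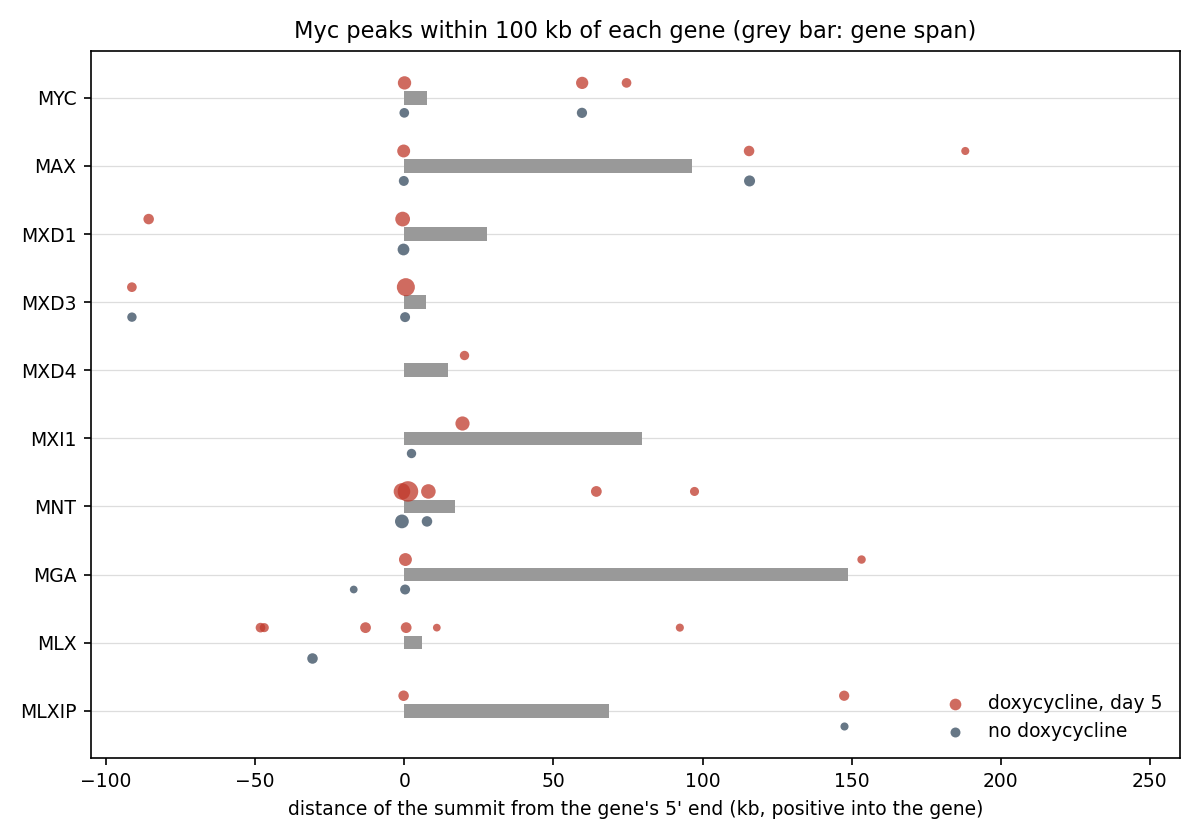
Position of every Myc peak within 100 kb of each gene, as the distance of its summit from the gene's 5′ end in kb (for MYC, from the lower-coordinate end), with the gene span in grey. Day 5 peaks are drawn above and peaks without doxycycline below each line, and dot area grows with summit fragments. Both libraries have a peak at the 5′ end of MAX, MXD1, MXD3, MNT and MGA and at the lower-coordinate end of MYC, and MLX has 6 peaks at day 5 and 1 without doxycycline.

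Other genes of the network and its cofactors were counted in the same way. MYCN, MYCL and MLXIPL, the other MYC and MLX partner genes, had none in either library (0 of 3). Of 15 genes of the Sin3 and histone deacetylase corepressor, which MXD proteins and MNT recruit, 8 carried a peak at day 5 (53.3%, interval 26.6 to 78.7). Without doxycycline 5 did (33.3%, 11.8 to 61.6). The shares of all genes, 27.4% at day 5 and 14.4% without doxycycline, lay within these intervals. ARID4A, a Sin3 subunit, had 33 fragments at day 5 and 18 without doxycycline. RBBP4, a histone-binding subunit, had 22 at day 5 and 16 without doxycycline. ARID4B (18 at day 5, 17 without doxycycline) and ING1 (17 at day 5, 14 without doxycycline) were closer in number. HDAC2 was listed without doxycycline only, with 13 fragments, and SAP30 (13), ING2 (13), NCOR1 (16) and SIN3A (8) at day 5 only.

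Of 12 genes of PRC1.6, the Polycomb complex of MGA, 5 had a peak at day 5 (41.7%, interval 15.2 to 72.3). Without doxycycline 2 did (16.7%, 2.09 to 48.4). Both intervals included the shares of all genes, 27.4% at day 5 and 14.4% without doxycycline. CBX3, a heterochromatin protein, had 29 fragments at day 5 and 22 without doxycycline. E2F6, a repressing E2F, had 17 at day 5 and 10 without doxycycline, while CBX1 (15), WDR5 (9) and L3MBTL2 (7) were listed at day 5 only. Of 5 genes tied to MLXIP and MLX control of glucose use, 4 had a peak at day 5 (80%, 28.4 to 99.5) and 2 without doxycycline (40%, 5.27 to 85.3), against 27.4% of all genes at day 5 and 14.4% without doxycycline. HK2, a hexokinase, had 28 fragments at day 5 and 8 without doxycycline. SLC2A1, a glucose transporter, had 15 at day 5 and 9 without doxycycline. These were its highest-ranked gene-end peaks in each library, which did not overlap, and any others were not compared. TXNIP, which restrains glucose uptake, was listed at day 5 only with 9, as was PFKFB3 with 7, and ARRDC4 had no peak.

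Of 17 other helix-loop-helix factors that contact E-boxes, 6 had a peak at day 5 (35.3%) and 3 without doxycycline (17.6%). BHLHE40, a repressor tied to the clock and hypoxia, had 23 fragments at day 5 and 16 without doxycycline. TFE3, a lysosome regulator, had 10 at day 5 and 9 without doxycycline. SREBF1 (16), SREBF2 (10), USF1 (9) and NPAS2 (8) were listed at day 5 only, and BMAL1 without doxycycline only, with 5 fragments. In both libraries the intervals of the Sin3, PRC1.6 and helix-loop-helix lists, and that of the 0 of 3 other network genes (0 to 70.8%), included the shares of all genes, 27.4% at day 5 and 14.4% without doxycycline. The interval of the 5 MLXIP and MLX target genes included that share without doxycycline. At day 5 its lower bound, 28.4%, was just above 27.4%. These 5 genes were chosen with earlier results of these data known, so no enrichment is read from that bound.

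**Figure D5:**
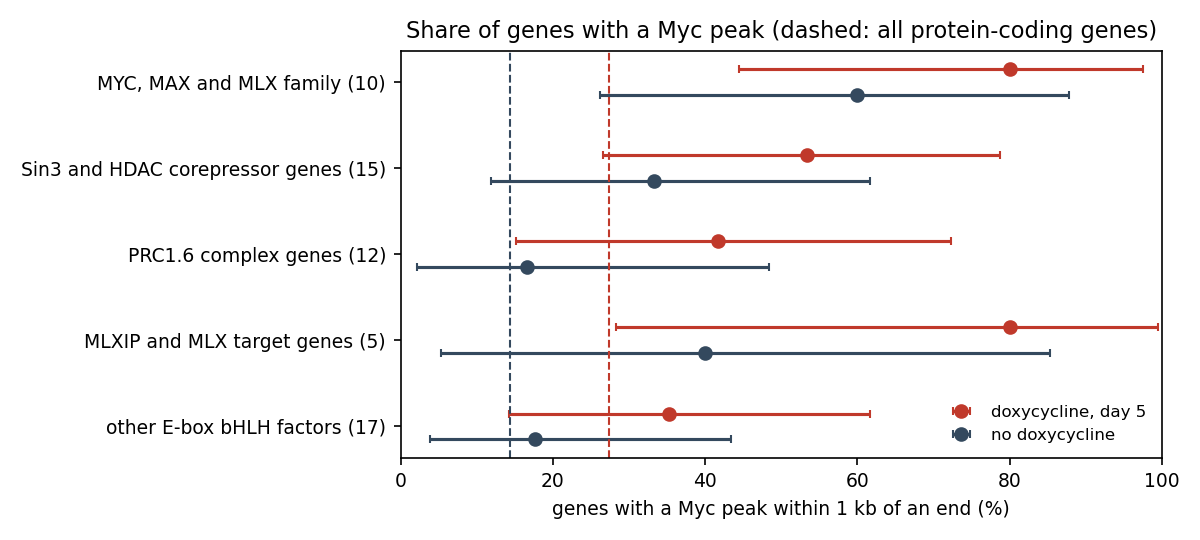
Share of genes in 5 lists that had a Myc peak at most 1 kb from an end, with the number of genes in brackets and exact 95% binomial intervals, day 5 of doxycycline above no doxycycline. Dashed lines mark the shares of all protein-coding genes, 27.4% at day 5 and 14.4% without doxycycline, and the MYC, MAX and MLX family stands at 80% at day 5 and 60% without doxycycline.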

How the data were processed

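Samples were grouped by their titles, and 22 of the 24 samples, among them IgG and day 1 Myc libraries, were not analysed here. The tools were Bowtie2, MACS2, Trim Galore and deepTools, on build hg38, per the submitters' processing notes, which as used here hold no versions or settings. Peaks were called per library, with no sign of pooling in the lists. The authors deposited for each peak a score, which is 10 times the −log10 q-value cut to a whole number, the fold over local background at the summit (a ratio), and there also the −log10 q-value and −log10 p-value, with smallest −log10 q-values of 1.33 in both lists.

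The number of fragments and the local background were solved from fold = (fragments + 1)/(background + 1) and a Poisson tail for p. The fit came within 0.001 in −log10 p for 100% of peaks. On simulated data 100% of 6727 and 3472 peaks were recovered. Those were made with the same formulas, so their recovery checks the solving only and not the formulas. Values of a peak depend on each library's depth. Gene spans, starts and promoter sequences came from RefSeq (GRCh38.p14), with promoters matched for 9 of the 10 members, MYC not among them. Ratios have exact conditional binomial intervals. Python 3.11.15, pandas 2.3.3 and scipy 1.17.1 were used.

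All 10 members are named, neighbouring peaks by the nearest coding gene end, and other lists by their highest-ranked day 5 peaks and members listed in 1 library. PVT1, HAUS3, DIABLO, LOC105370791, ING1 and ARRDC4 were named after values were seen. Genes were not ranked by likeness of pattern, since 2 libraries give none. The members and lists were chosen with earlier results of these data known. Alternatives were other windows (500 and 2500 bp), listed starts, the highest-ranked 50% of each list, equal numbers of peaks, other overlap rules, 50 kb neighbourhoods, scaled ratios and other motifs.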

Additional observations from a re-analysis of the deposited data

How the results depend on the processing

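The counts of members with a peak, 8 at day 5 and 6 without doxycycline, stayed at 8 or 9 and at 5 to 7 under the alternatives tried. Taking the highest-ranked 50% of each list left 5 without doxycycline, since MYC ranked below it. Windows of 2500 bp gave 1 member listed without doxycycline only, MXI1, in place of 0. Within 100 kb, the highest-ranked 50% of each list left 17 peaks at day 5 and 8 without doxycycline, in place of 27 and 14, with 6 shared in place of 11, by its own construction. Equal numbers of peaks left 17 at day 5. A reciprocal overlap of 50% left 10 shared in place of 11, since the pair about 8 kb inside MNT fell below it. The median ratio of summit fragments was 1.33 in place of 1.92 when divided by the median of all pairs. Asking for CACGTG or CACGCG raised the members with a motif to 6, in place of 3. The alternatives with any peak inside the span, with listed starts beside gene ends, and with CATGTG were chosen after seeing the data. With 11 or 12 fragments at the median peak, single counts carry wide intervals. No paired analysis was possible because each condition has 1 Myc library.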

Other observations

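The E-box letters followed Myc peaks over all promoters. CACGTG was in 13.0% of 6196 promoter windows with a day 5 peak within 1 kb of the start and in 15.1% of 3301 with a peak without doxycycline, against 6.47% of 15681 windows with a peak in neither library. For CACGCG the shares were 21.8%, 22.8% and 11.1%. For CATGTG the order was the other way, 6.13%, 6.63% and 10.1%. The windows were not matched for base composition or activity, and each share is a description of these libraries.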
